A study of Bos taurus with 16 samples.

Results

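Interferon-stimulated genes are switched on when a cell senses interferon, the signalling protein released in response to viruses and other foreign nucleic acid. Type I interferons and interferon gamma bind different receptors at the cell surface, which pass the signal to transcription factors in the nucleus. The products block steps of viral replication or amplify the response, and in cattle ISG15 and the MX genes are also known as markers of the maternal response to the early embryo. Described here are 9 such genes, ISG15, MX1, MX2, RSAD2, IFI6, IFIT2, IFIT3, IFI44 and IRF7, chosen by name and matched through their NCBI gene IDs. Earlier results of these data were known when they were chosen, so the shares of all genes given below serve as description only. All 9 were found among the 34109 listed genes.

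RNA was sequenced from the round muscle of the hind leg and the sirloin muscle of the back of 8 newborn Hanwoo calves (Korean beef cattle), sampled just after birth. The dams of 4 control calves were fed at 100% of their nutritional requirement in mid to late pregnancy and those of 4 treated calves at 150%. According to the study's methods the calves were male and had taken no colostrum. Each calf gave 1 library per muscle, so 16 libraries formed 4 groups of 4, and calves are named below by diet and replicate number. The total count per library was between 44473011 and 72446933. Levels are CPM (the share of a library's counts taken by a gene, scaled to 1000000) normalized by the trimmed mean of M values (TMM), and levels of different genes are compared only in TPM, the like measure that also divides by transcript length. In bulk tissue, fewer cells of a type and less RNA per cell cannot be told apart. The muscle genes ACTA1 (skeletal alpha-actin) and CKM (muscle creatine kinase) were abundant in all libraries, with at least 14592 CPM for ACTA1 and 6346 CPM for CKM.

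The files name the members by NCBI gene IDs, which are 281871 for ISG15, 280872 for MX1, 280873 for MX2, 506415 for RSAD2 and 512913 for IFI6. IFIT2 is 527528, IFIT3 is 509678, IFI44 is 508348 and IRF7 is 100125591. All 9 are protein-coding genes. RefSeq's ARS-UCD2.0 annotation gave gene names and gene order only, and in it MX1 and MX2 are neighbours, as are IFIT2 and IFIT3. RSAD2 lies beside CMPK2, and IFI44 beside its paralogue IFI44L. IFIT2 and IFIT3 both overlap the LIPA gene model, so their reads could be shared with it if counting ignored strand, which is not given in the sources used here. Reads of near-identical stretches of MX1 and MX2, or of the IFIT and IFI44 families, could likewise be split between copies.

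The members were expressed at low levels. Averaged over the 16 libraries, IFI6 was highest at 5.84 TPM, followed by ISG15 at 2.26, MX1 at 2.17, RSAD2 at 1.97 and IRF7 at 1.22 TPM. The means of IFI6 and ISG15 lay well above their medians. By the median over the libraries RSAD2 was highest at 2.08 TPM, before IFI6 at 1.52, MX1 at 1.51, IRF7 at 0.999 and ISG15 at 0.856 TPM. The other members were below 1 TPM on average, with 0.528 for IFIT3, 0.226 for IFI44, 0.204 for IFIT2 and 0.125 for MX2. The ranges over libraries of all neighbours in this order overlapped, and IFI6 alone ran from 0.342 to 25.7 TPM. The counts behind these levels were small: at most 86 reads for MX2, 44 for IFI44 and 38 for IFIT2, against 502 for MX1. MX2 had no read in 7 of the 16 libraries, IFI44 in 2 and ISG15 in 1. A count of 0 allows up to 3 counts, which is 0.0414 CPM in the deepest and 0.0675 CPM in the shallowest library, and such limits cover counting error only.

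Calves of the same diet differed widely in these genes, and a calf that was high in one muscle was mostly high in the other. Control calf 1 was among the 2 highest of the 8 calves in both muscles for 8 of the 9 members, all but IFIT3. Of all 20576 genes tested in both muscles, 9.44% had this calf among the 2 highest in both. Treated calf 2 was among the 2 highest in both muscles for 5 members (11.3% of all genes) and control calf 2 for 2 members (17.3%). The remaining calves were there for no member, against 8.24% of all genes for control calf 3, 12.4% for control calf 4, 11.1% for treated calf 1, 9.59% for treated calf 3 and 9.2% for treated calf 4. Calves with equal levels were not counted among the 2 highest. For ISG15, MX2, IFI6, IFIT2 and IRF7, the 2 highest calves in both muscles were control calf 1 and treated calf 2, 1 from each diet, as for 0.86% of all genes. Above the median of the 8 calves in both muscles were control calf 1 for 8 members (27.4% of all genes), treated calf 1 for 7 (30.3%), control calf 2 for 6 (36.5%) and treated calf 2 for 6 (27.7%). Control calf 3 (27.7% of all genes), control calf 4 (30.8%), treated calf 3 (29.3%) and treated calf 4 (27.5%) were above it in both muscles for no member.

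**Figure D1:**
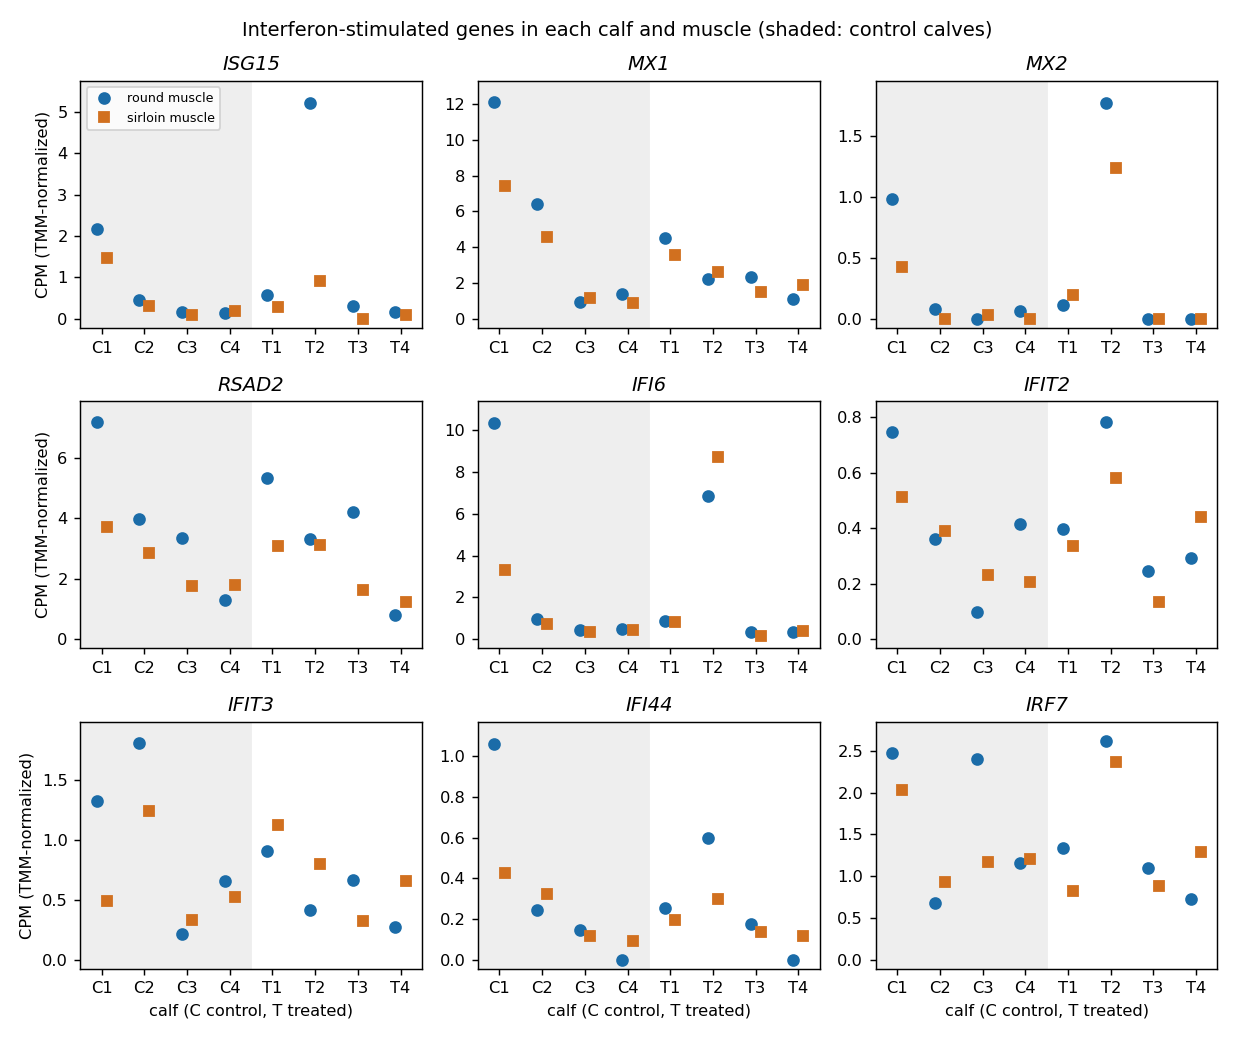
TMM-normalized CPM (vertical axes, each starting near 0) of the 9 members in the 8 calves (C1 to C4 control, T1 to T4 treated); circles are round and squares sirloin libraries, 1 point each. In ISG15, MX2 and IFI6 the points of control calf 1 and treated calf 2 stand above those of the other calves, whereas MX1 falls from control calf 1 over control calf 2 to treated calf 1 in both muscles.

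ISG15 encodes a ubiquitin-like protein that is conjugated to other proteins and is among the most strongly interferon-induced genes. In round muscle the control calves 1 to 4 had 2.17, 0.453, 0.170 and 0.131 CPM, and the treated calves 0.573, 5.21, 0.304 and 0.167 CPM. In sirloin muscle these were 1.47, 0.322, 0.0832 and 0.183 CPM in the control calves and 0.296, 0.920, 0 and 0.103 CPM in the treated calves. The diets overlapped in both muscles, and treated calf 2 was highest in round but second to control calf 1 in sirloin muscle. The highest round library was 39.7 times the lowest.

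IFI6 encodes a small membrane protein known to hinder flavivirus replication, and it had the highest mean TPM of the members, though not the highest median. In round muscle it was at 10.3, 0.971, 0.461 and 0.502 CPM in control calves 1 to 4 and at 0.892, 6.83, 0.332 and 0.334 CPM in the treated calves. The sirloin levels were 3.32, 0.710, 0.349 and 0.434 CPM in the control and 0.808, 8.70, 0.149 and 0.410 CPM in the treated calves. All libraries of the other 6 calves were below 1 CPM. The highest sirloin library was 58.5 times the lowest.

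MX1 and MX2 encode dynamin-like GTPases that trap viral components. MX2 was at 0.987, 0.0777, 0 and 0.0655 CPM in the round muscle of control calves 1 to 4 and at 0.111, 1.77, 0 and 0 CPM in the treated calves. In sirloin muscle it was at 0.424, 0, 0.0333 and 0 CPM in the control and at 0.197, 1.24, 0 and 0 CPM in the treated calves. MX2 thus had the same 2 highest calves as IFI6 in both muscles. MX1, its neighbour, had 12.1, 6.41, 0.947 and 1.38 CPM in the round muscle of the control calves and 4.51, 2.24, 2.36 and 1.13 CPM in that of the treated calves. Its sirloin levels were 7.41, 4.54, 1.18 and 0.913 CPM in the control and 3.57, 2.60, 1.5 and 1.89 CPM in the treated calves. For MX1 the order began in both muscles with control calf 1, control calf 2 and treated calf 1. Treated calf 2, which had 1.79 times the MX2 level of control calf 1 in round muscle, had 0.186 times its MX1 level there. The corresponding ratios in sirloin muscle were 2.93 for MX2 and 0.351 for MX1.

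RSAD2 encodes viperin, an enzyme that makes a chain-terminating nucleotide. It varied less between calves than ISG15, MX1, MX2 or IFI6. The round levels were 7.17, 3.98, 3.35 and 1.29 CPM in control calves 1 to 4 and 5.34, 3.31, 4.22 and 0.794 CPM in the treated calves. The sirloin levels were 3.73, 2.87, 1.76 and 1.80 CPM in the control and 3.07, 3.12, 1.62 and 1.25 CPM in the treated calves. Control calf 1 was highest and treated calf 4 lowest in both muscles.

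IFIT2 and IFIT3 encode RNA-binding proteins of 1 family that act together against viral RNA, yet their calf orders differed. IFIT2 was highest in treated calf 2 (0.782 CPM in round and 0.580 CPM in sirloin muscle) and then in control calf 1 (0.746 and 0.513 CPM). IFIT3 was highest in control calf 2 in both muscles, at 1.81 CPM in round and 1.25 CPM in sirloin muscle. Control calf 1 was next for IFIT3 in round muscle at 1.32 CPM, but in sirloin muscle it had 0.491 CPM and 5 calves were higher. The lowest levels were 0.0971 CPM for IFIT2 and 0.219 CPM for IFIT3, both in the round muscle of control calf 3.

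IFI44 encodes a cytoplasmic protein of less well-known action. It was highest in control calf 1, at 1.06 CPM in round and 0.424 CPM in sirloin muscle. Treated calf 2 came second in round muscle at 0.597 CPM and next after control calf 2 in sirloin muscle at 0.300 CPM. Control calf 4 and treated calf 4 had no IFI44 read in round muscle.

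IRF7 encodes the transcription factor that amplifies type I interferon production, and it had the lowest ratio of the highest to the lowest library of the members with a read in every library. It was highest in treated calf 2, at 2.61 CPM in round and 2.36 CPM in sirloin muscle, ahead of control calf 1 at 2.48 and 2.03 CPM. Control calf 3 came close to both in round muscle at 2.40 CPM but had 1.16 CPM in sirloin muscle. The highest library was 3.88 times the lowest in round muscle and 2.85 times in sirloin muscle.

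**Figure D2:**
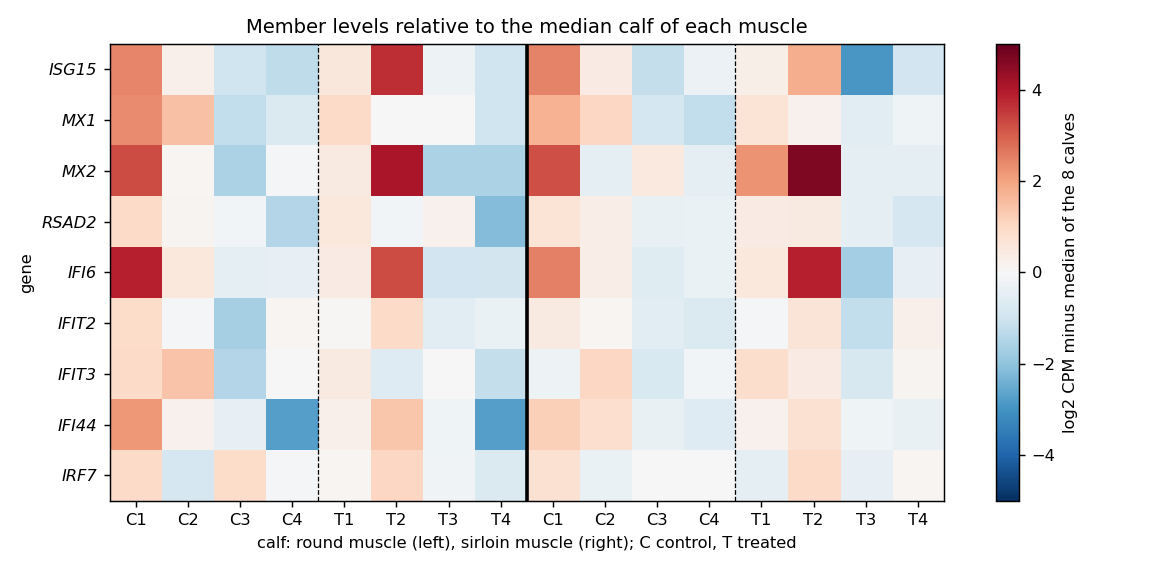
log2 CPM (prior count 2) of each member (rows) minus the median of the 8 calves of that muscle, in 16 libraries (columns; round left, sirloin right; C control and T treated calves). Red marks levels above and blue levels below the median calf, and control calf 1 is red for 9 members in round and 8 in sirloin muscle.

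The differences between calves were tested with 1 F-test per gene over the 6 calf terms within diet, in all 16 libraries, with edgeR's quasi-likelihood method. A gene was called at a Benjamini-Hochberg adjusted p below 0.05 over all 22877 genes tested. The test asks whether calves of a diet differed by more than the 2 muscles of a calf did, and the 2 libraries of a calf share all handling of that calf. Called were 5 of the 9 members, against 20.5% of all genes. They were IFI6 (edgeR adjusted p = 0.000131), ISG15 (0.000527), MX1 (0.00155), MX2 (0.00187) and RSAD2 (0.0386). IRF7 (edgeR adjusted p = 0.0504), IFIT3 (0.0719), IFI44 (0.0751) and IFIT2 (0.114) were not called. Unadjusted, all 9 were below 0.05, as were 36.4% of all genes, and DESeq2 called 6 members against 34.2% of all genes. Without both control calf 1 and treated calf 2, only MX1 of the 9 was called (edgeR adjusted p = 0.00850), with 0.0652 for IFI6, 0.0730 for RSAD2, 0.209 for ISG15 and 0.337 for MX2. The RSAD2 call was also lost without control calf 1, 2 or 4 or treated calf 1 or 4, each left out alone (edgeR adjusted p between 0.0636 and 0.0757).

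Levels in the muscles of a calf were further compared by correlation over the 8 calves on log2 CPM. The median Pearson r of the members was 0.771, with 0.487 over all genes. It was highest for IFI6 (r = 0.939, exact permutation p = 0.00285; Spearman's rho = 0.929, exact permutation p = 0.00223). MX1 followed (r = 0.918, exact permutation p = 0.00166; rho = 0.833, exact permutation p = 0.0154). IFIT3 had the lowest value (r = 0.477, exact permutation p = 0.231; rho = 0.381, exact permutation p = 0.360). By the unadjusted exact permutation p of r, 6 of the 9 members were below 0.05, against 24.5% of all genes, and by the p adjusted over all genes none were, against 0.802%. The lowest adjusted exact permutation p was 0.0668, for MX1. When the 2 calves farthest from the median in round muscle were left out, r was 0.847 for IFI6, 0.752 for MX1 and 0.862 for IFI44. It was 0.586 for IFIT2, 0.540 for RSAD2, 0.444 for MX2, 0.316 for ISG15, 0.0530 for IRF7 and -0.129 for IFIT3. Leaving out the most extreme calves narrows the range, which by itself lowers r. For ISG15 and MX2, whose unadjusted exact permutation p was below 0.05, the relation rested largely on the calves left out. For ISG15, MX2, IFI6 and IRF7 the calves left out were control calf 1 and treated calf 2.

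The members moved together over the libraries only in part. After each gene was centred on its muscle mean, r between members had a median of 0.624 over the 36 pairs and ranged from -0.197 to 0.940, with 35 pairs above 0. These pairs share the same 16 libraries. IFI6 tracked the mean of the other 8 members most closely (r = 0.910), then ISG15 (0.890), and IFIT3 (0.460) and IRF7 (0.495) least.

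The dams' diet gave no detectable difference in any member. In both muscles the treated and control calves overlapped for all 9 members. Among all genes the diets did not overlap for 1.76% in round and 1.68% in sirloin muscle. In round muscle 0 of 9 members were called by edgeR, against 0.0185% of all genes, and none was below 0.05 before adjustment (4.41% of all genes) or called by limma-voom. DESeq2 called none of the 6 members for which it gave an adjusted p (0.208% of all genes) and gave none for ISG15, MX2 and IFI6. The point estimates were highest for ISG15, with a log2 fold change (treated against control) of 1.12 (SE 1.11), and lowest for MX1 at -0.99 (SE 0.72). The lowest edgeR adjusted p was 0.864. In sirloin muscle 0 of 9 members were called (0.00918% of all genes), again with none below 0.05 before adjustment (3.91%) and none called by limma-voom or, of the 8 with an adjusted p (all but IFI6), by DESeq2 (0.0597%). The sirloin log2 fold changes ran from -0.64 (SE 1.17) for ISG15 to 1.67 (SE 1.75) for MX2, with 1.07 (SE 1.14) for IFI6 and -0.55 (SE 0.62) for MX1. The lowest edgeR adjusted p was 0.941. When the 2 libraries of each calf were summed, 0 of 9 members were called (0.00437% of all genes), with none below 0.05 before adjustment (3.85%) and none called by DESeq2 (0.162%) among the 6 with an adjusted p (all but ISG15, MX2 and IFI6). The median log2 fold change of the members was -0.19 in round and 0.00 in sirloin muscle, with 0.02 and 0.03 over all genes.

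**Figure D3:**
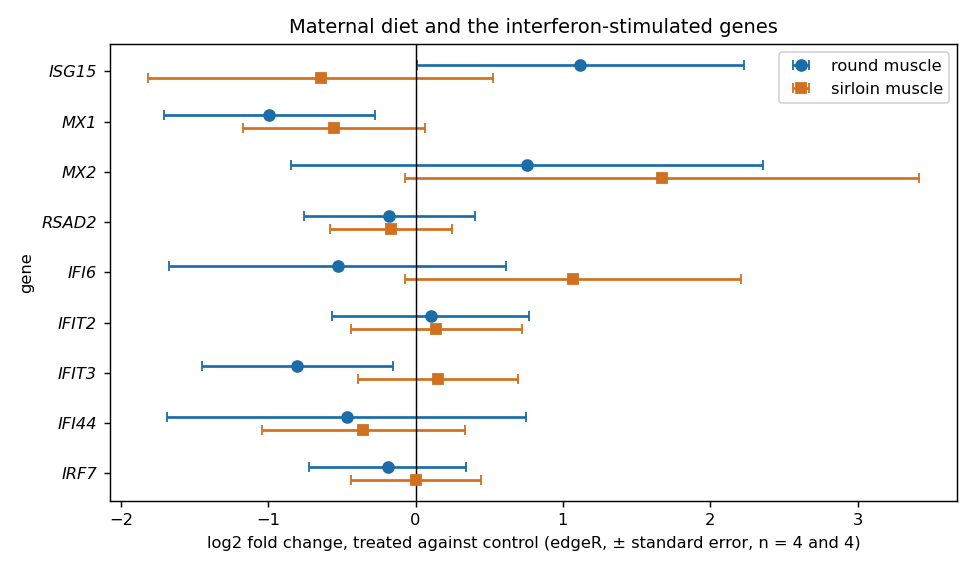
log2 fold change of the treated against the control calves (horizontal axis; edgeR, bars are ± 1 standard error, 4 calves per diet) for the 9 members in round (circles) and sirloin muscle (squares). The estimates lie on both sides of 0, and the bars are longest for MX2.

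The spread within a diet was as large as the levels themselves for several members. ISG15 averaged 0.730 ± 0.968 CPM in the control and 1.56 ± 2.44 CPM in the treated round libraries (SD, n = 4 each). IFI6 averaged 3.07 ± 4.85 CPM in the control and 2.1 ± 3.17 CPM in the treated round libraries, and 1.2 ± 1.42 and 2.52 ± 4.13 CPM in the sirloin libraries (SD, n = 4 each). Single calves set the sign of such differences. The round log2 fold change of ISG15 was 2.61 without control calf 1 and -1.03 without treated calf 2. That of IFI6 in round muscle was 1.70 without control calf 1 and -2.53 without treated calf 2. MX1, in which treated calf 2 was not high, had -0.16 without control calf 1 and -0.94 without treated calf 2.

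Between the muscles, 0 of 9 members were called in the fit of all 16 libraries in 4 groups, against 0.0612% of all genes, and none was below 0.05 before adjustment (6.33%) or called by limma-voom or, of the 8 with an adjusted p (all but IFI6), by DESeq2 (0.367%). By point estimate all 9 were higher in round muscle in this fit, by 0.13 (IFIT3) to 1.38 (ISG15, SE 0.89) on the log2 scale, with a median of 0.52 and of 0.00 over all genes. With the calf as a block, which compares the muscles within calves, 0 of 9 were again called (0.476% of all genes). ISG15 alone was then below 0.05 before adjustment (log2 difference 1.2, edgeR adjusted p = 0.241), as were 11.2% of all genes, and IFI44 turned to -0.03. ISG15 was higher in round muscle in 7 of the 8 calves, all but control calf 4, whereas 6.73% of all genes were higher there in at least 7. RSAD2 and IFI6 were each higher there in 6 calves (17.2% of all genes in at least 6), and the other members in 4 or 5. For MX2 these were 4 calves, with 2 lower and 2 without a read in either muscle. Control calf 1 had all 9 members higher in round muscle, treated calf 3 had 8, and treated calf 4 had 1, ISG15. The difference between the muscles did not depend detectably on the diet, with 0 of 9 members called in the interaction by edgeR (0.0% of all genes), by DESeq2 (0.0%, with no adjusted p for IFI6) or below 0.05 before adjustment by edgeR (2.78%). With the calf as a block, 0 of 9 were again called or below 0.05 before adjustment, against 1 and 865 of all 22877 genes. The lowest unadjusted edgeR p was then 0.0719, for ISG15 (log2 difference 1.56).

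**Figure D4:**
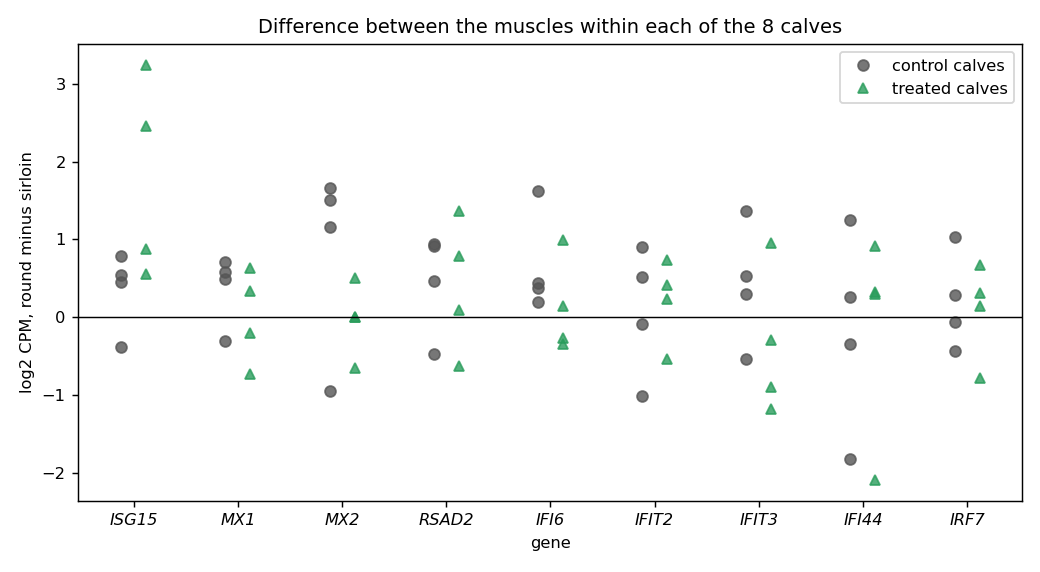
log2 CPM (prior count 2) in round minus that in sirloin muscle of the same calf (vertical axis) for the 9 members, 1 point per calf; circles are control and triangles treated calves. For ISG15, 7 of 8 points are above 0, and for IFIT3, 4 of 8.

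The other parts of the interferon pathway were described through lists of known genes. Of 21 interferon genes listed, 15 matched a row, among them IFNB1, IFNG, IFNW1, IFNK and IFNL3. None had a read in any of the 16 libraries, which allows up to 0.00338 CPM over all libraries (3 counts). This limit covers counting error only, and reads shared by close copies, such as the IFNA genes, may have gone uncounted. Of 16 receptor and signalling genes, 6 (37.5%) were called for the calf effect, against 20.5% of all genes. Among them was IRF9, a DNA-binding subunit of the factor that type I interferons activate. IRF9 (edgeR adjusted p = 0.000610) was at 17.5 CPM in the round muscle of control calf 1 and 23.5 CPM in that of treated calf 2, and the sirloin levels were 10.5 and 17.2 CPM. The other calves were between 2.72 and 8.77 CPM. Of 18 sensors of foreign nucleic acid and their adaptors, 7 (38.9%) were called, against 20.5% of all genes. They were led by ZBP1, a sensor of left-handed nucleic acid (edgeR adjusted p = 0.000695). In both muscles control calf 1 and treated calf 2 were the 2 highest for 1 of the 16 and 3 of the 18. Among all genes this share was 0.86%. The called sensor TLR9 was highest in control calf 4, at 0.874 CPM in round and 1.32 CPM in sirloin muscle.

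Of 36 other type I targets tested, 24 (66.7%) were called for the calf effect, against 20.5% of all genes. For 12 of the 36, control calf 1 and treated calf 2 were the 2 highest calves in both muscles (0.86% of all genes). IFI27, a mitochondrial relative of IFI6, was at 10.1 CPM in control calf 1 and 6.67 CPM in treated calf 2 in round muscle, at 4.89 and 7.20 CPM in sirloin muscle, and at no more than 2.12 CPM in the other calves (edgeR adjusted p = 0.000107). UBA7, the enzyme that activates ISG15 for conjugation, was at 12.4 CPM in control calf 1 and 46.0 CPM in treated calf 2 in round muscle (edgeR adjusted p = 0.00140). OAS2, which senses double-stranded RNA, leaned to control calf 1, with 1.25 CPM there and 0.576 CPM in treated calf 2.

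The share called was highest for a list of genes that lean to interferon gamma or act in antigen presentation. Which interferon, if any, acted on them in these calves was not tested. Of 22 such genes, 18 (81.8%) were called, against 20.5% of all genes. For 13 of the 22, control calf 1 and treated calf 2 were the 2 highest calves in both muscles (0.86% of all genes). IDO1, which degrades tryptophan, was at 8.14 CPM in control calf 1 and 21.2 CPM in treated calf 2 in round muscle, and at 3.70 and 16 CPM in the sirloin. In the other 6 calves it was at most 0.104 CPM (edgeR adjusted p = 9.77e-06). IRF1, an interferon-induced transcription factor, was at 15.6 and 26.3 CPM in the round muscle of these calves, with no more than 5.59 CPM in any other calf and either muscle. GBP5, an interferon-induced GTPase, was at 1.56 and 4.49 CPM in their round muscle. Control calf 2 came close to control calf 1 there at 1.11 CPM, and the remaining calves had at most 0.175 CPM. In round muscle the list summed to 1116 CPM in control calf 1 and 2289 CPM in treated calf 2, and to between 192 and 315 CPM in the other calves. In sirloin muscle it summed to 568 and 1083 CPM, and to between 210 and 298 CPM in the others. The 9 members summed to more in control calf 1 (38.3 CPM) than in treated calf 2 (23.8 CPM) in round muscle, and to 19.8 and 20.6 CPM in sirloin muscle. Such a sum weighs each gene by its CPM. In round muscle ISG15, MX2, IFIT2 and IRF7 were higher in treated calf 2 than in control calf 1, and the other members were lower. No gene of these lists was called for diet, muscle or their interaction.

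**Figure D5:**
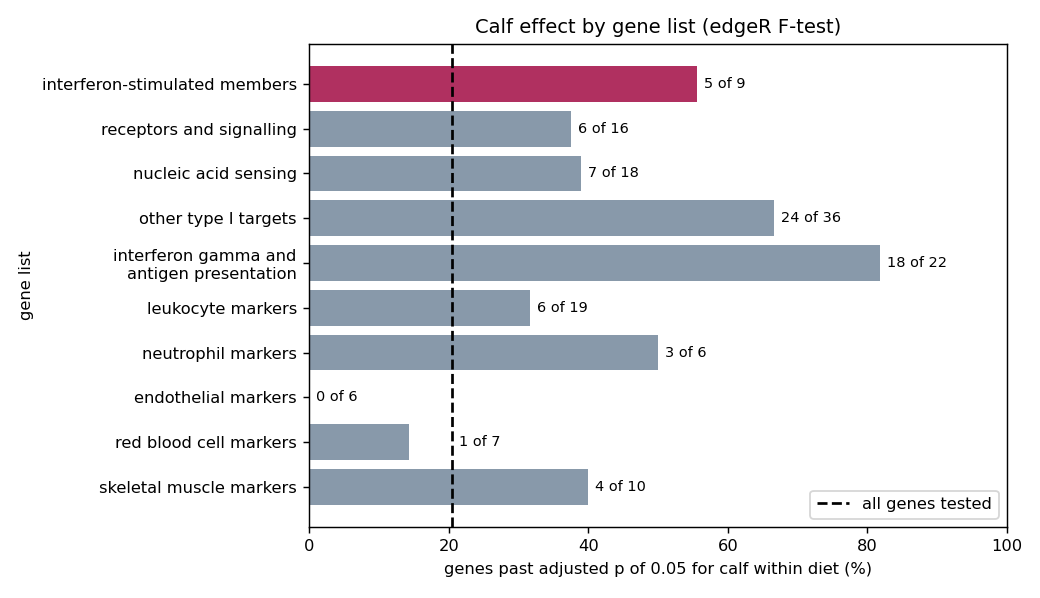
Percent of the tested genes of each list that were called for the calf effect within diet (horizontal bars, edgeR adjusted p below 0.05), with the counts beside the bars; the dashed line is the 20.5% of all genes tested. The interferon gamma and antigen presentation list (18 of 22) and the other type I targets (24 of 36) lie above the members (5 of 9).

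All 19 markers of white blood cells listed had reads. For the calf effect 6 (31.6%) were called (PTPRC, CD14, CD163, CSF1R, ITGAM and NKG7), against 20.5% of all genes. The summed level of the 19 in round muscle was 19.2, 24.7, 9.47 and 13.3 CPM in control calves 1 to 4. It was 13.9, 41.9, 13.4 and 9.73 CPM in the treated calves. In sirloin muscle it was 13.2, 16.6, 10.4 and 8.40 CPM in the control and 14.5, 53.1, 11.0 and 29.3 CPM in the treated calves. Treated calf 2 had the highest sum in both muscles, but control calf 1 was below control calf 2 in both. CD163, a macrophage receptor, was at 19.8 CPM in round and 25.0 CPM in sirloin muscle of treated calf 2, and at 7.27 and 4.91 CPM in control calf 1. PTPRC, which marks all leukocytes, was at 3.46 and 3.04 CPM in treated calf 2 and at 1.13 and 1.49 CPM in control calf 1. CSF1R was at 6.83 and 12.2 CPM in treated calf 2. For CSF1R control calf 1 was above control calf 2, at 4.55 and 3.03 CPM against 4.35 and 2.41 CPM. For CD14 it was below control calf 2 in round (1.08 against 2.34 CPM) but above it in sirloin muscle (1.43 against 1.19 CPM). For ITGAM, CD163 and PTPRC it was below control calf 2 in both muscles. The T cell marker CD3E and the macrophage marker CD68 were not called (edgeR adjusted p = 0.194 and 0.175). No leukocyte marker was called for diet in either muscle. The part of leukocytes in the members' levels was not tested.

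Among 12311 genes with a mean of at least 1 CPM, the 10 whose levels over the 16 libraries, centred on the muscle means, were most like the mean of the standardized members were IFI27 (r = 0.977), PARP10 (0.945), a BoLA gene with gene ID 533050 (0.920), HERC6 (0.912), OAS1Y (0.911), EPSTI1 (0.906), UBA7 (0.902), BOLA-DMB (0.899), CD74 (0.889) and BOLA-DRA (0.888). Of these, 8 were in the lists above, so they overlap with genes already described. CD74, the invariant chain of MHC class II, was at 175 CPM in control calf 1 and 525 CPM in treated calf 2 in round muscle, with a median of 19.0 CPM over the 8 calves. BOLA-DRA, a class II chain, was at 49.0 and 119 CPM in these calves against a median of 4.79 CPM. The OAS1 and BoLA genes belong to families of close copies, and reads may have been split among them.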

How the data were processed

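The authors deposited read counts (whole numbers, not normalized) and TPM for 34109 genes and 16 libraries, and tables with their own fold changes and p-values, which were not used. Per the labels, reads were trimmed with Trimmomatic, aligned with STAR to ARS-UCD1.2 and counted with featureCounts after poly(A) selection, whereas the study's methods name HISAT2, Bowtie2, StringTie and a stranded kit that removes rRNA and globin RNA. Which of these made the counts was not settled. TPM summed to 1000000 in both libraries of control calf 2, the 2 deepest, and to between 999756 and 999858 in the other 14.

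Symbols came from the ARS-UCD2.0 annotation, in which 30762 of the gene IDs (90.2%) were found. The labels number the libraries of both muscles alike, and libraries with the same number were taken as of 1 calf. After removal of group means, r between the muscles of a calf so defined was 0.311 to 0.765. Between muscles of different calves it was -0.524 to 0.456, so the ranges overlapped. Calf number was used as a block between muscles.

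Tests used edgeR 4.0.16 (glmQLFit, glmQLFTest, TMM factors of 0.862 to 1.12) in R 4.3.3, without covariates, on genes with at least 1 count in any library, two-sided, with Benjamini-Hochberg adjustment over all genes tested. The main fits used legacy mode, except for the calf effect, where simulated data gave many false calls in that mode. The standard error was the size of the log2 fold change over the square root of F. Muscle and interaction fits used 4 groups of libraries. Correlations used log2 CPM (prior count 2) and all 40320 orders of 8 calves. Alternatives were DESeq2 1.42.0, limma-voom (limma 3.58.1), RLE factors, filterByExpr, blocks, limma on log2(TPM + 0.1) and leaving out calves. The fits and the permutation p were tested on simulated data.

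Named were all members and, per list, up to 4 genes with the smallest p for the calf effect among those called, PTPRC, CD3E, CD68, CD163, ACTA1 and CKM, and the 10 genes most like the members. A gene that this rule covers is not reported here. The members and lists were chosen with earlier results of these data known.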

Additional observations from a re-analysis of the deposited data

Results flagged for a closer look

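The gap between the highest calf and the next, divided by the range of the 4 calves of a group, was compared with Dixon's critical value for 4 samples for each member, muscle and diet on the CPM scale. Of 36 groups, 10 exceeded it. The groups came from the same calves, and the members moved together in part, so the groups are not independent. No chance rate can therefore be set against the count of 10, which serves as description only. The calf that stood apart was control calf 1 in 5 groups and treated calf 2 in the other 5, and the genes were ISG15, MX2 and IFI6. For ISG15 in round muscle the ratio was 0.842 for control calf 1 and 0.919 for treated calf 2. For MX2 in round muscle it was 0.921 for control calf 1 and 0.937 for treated calf 2, and in sirloin muscle 0.922 and 0.841. For IFI6 in round muscle it was 0.948 for control calf 1 and 0.914 for treated calf 2, and in sirloin muscle 0.879 and 0.923. On the log2 scale 0 of the 36 groups exceeded the critical value.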

How the results depend on the processing

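No member with an adjusted p was called for diet, muscle or their interaction under any alternative run, and 4 to 7 were called for the calf effect, except without both control calf 1 and treated calf 2 (an alternative chosen after seeing the data), where 1 was. Leaving out 1 calf gave 4 to 6. DESeq2 called 6 (34.2% of all genes) and limma-voom 5 (4118 of all 22877 genes). RLE factors called 6, filterByExpr 7 and edgeR's legacy mode 5, for which the share of all genes is not given here. The median r between the muscles was 0.540 without the 2 calves farthest from the median, and that of IFIT3 was -0.129. IRF7 was called under DESeq2, RLE factors and filterByExpr and without control calf 3 or treated calf 4, IFIT3 without treated calf 3, and IFI44 under filterByExpr. DESeq2 gave no adjusted p for ISG15, MX2 and IFI6 for diet in round muscle and in the sum, and none for IFI6 for diet in sirloin muscle, for muscle and for the interaction. MX2 did not pass filterByExpr in the diet fits and has no value there. Small counts limit MX2, IFI44 and IFIT2 most.

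Uncalled log2 fold changes for diet changed sign as follows, and the cause was not tested. Without both calves the round values were -0.36 for MX2, 0.26 for RSAD2 and 0.12 for IFI44, and the sirloin values 0.069 for MX1, -0.13 for IFI6, -0.0022 for IFIT3 and -0.13 for IRF7. Under limma-voom they were -0.56 for MX2 in round, and -0.018 for IFI6 and -0.050 for IRF7 in sirloin muscle, and limma on log2(TPM + 0.1) gave 0.053 for MX1 in sirloin muscle. With 1 calf left out, the round values ranged from -1.03 to 2.61 for ISG15, -2.79 to 3.18 for MX2, -0.49 to 0.28 for RSAD2, -2.53 to 1.70 for IFI6, -0.36 to 0.56 for IFIT2, -1.29 to 0.95 for IFI44 and -0.66 to 0.062 for IRF7. The sirloin values ranged from -1.96 to 0.73 for ISG15, -0.87 to 0.10 for MX1, -0.78 to 4.76 for MX2, -0.36 to 0.077 for RSAD2, -1.40 to 2.33 for IFI6, -0.15 to 0.42 for IFIT2, -0.14 to 0.69 for IFIT3, -0.67 to 0.058 for IFI44 and -0.42 to 0.28 for IRF7. Round against sirloin, IFIT3 ranged from -0.025 to 0.22, and IFI44 was -0.45 under limma-voom and -0.22 without both calves.

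Calves with the same number in both diets did not deviate together (r of same-numbered calves from -0.0436 to 0.290 in round and -0.280 to 0.274 in sirloin muscle). With the replicate number as a block, 0 members were called for diet in round or sirloin muscle or their sum, and MX2 in round was -0.75, IFI6 in sirloin -0.11 and IRF7 in sirloin muscle -0.071. With the calf as a block between the muscles, 0 members were called and IFI44 was -0.032.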

Other observations

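IFNLR1, a subunit of the type III interferon receptor, was called for the calf effect (edgeR adjusted p = 0.0218), and its round level was 13.5, 7.36, 4.4 and 6.51 CPM in control calves 1 to 4 and 1.78, 1.26, 2.86 and 0.0627 CPM in the treated calves. The diets did not overlap for it in round muscle, as for 1.76% of all genes, but the diet difference was not called (edgeR adjusted p = 0.864), and in sirloin muscle the diets overlapped. IFITM1, which encodes a membrane protein that blocks viral entry, was lowest in control calf 3 in both muscles, at 0.534 and 0.416 CPM, and control calf 1 and treated calf 2 had its 2 highest round levels, at 12.4 and 14 CPM.

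Of 6 neutrophil markers 3 were called for the calf effect (20.5% of all genes), S100A8, S100A9 and LCN2. S100A9 was highest in treated calf 1 in both muscles, at 3.5 and 5.81 CPM, with 0.514 and 1.48 CPM in treated calf 2. No endothelial marker of 6 was called or below 0.05 before adjustment by edgeR. Of 7 red blood cell markers 1 was called (20.5% of all genes), HBB (beta globin). It was highest in treated calf 3 in round muscle at 7.92 CPM and highest in treated calf 4 in sirloin muscle at 5.93 CPM. Of 10 skeletal muscle markers 4 were called (20.5% of all genes), CKM, MYH2, DES and MYOG. MYOG, the myogenic factor of differentiating muscle cells, was lowest in treated calf 2 in both muscles, at 12.2 CPM in round and 4.74 CPM in sirloin muscle, where the other calves had at least 13.7 CPM. The other called muscle markers did not share this order. DES was highest in treated calf 2 in round muscle at 9117 CPM and second there in sirloin muscle at 9843 CPM. MYH2 was lowest in treated calf 2 in sirloin muscle only, at 13374.5 CPM, and CKM in neither muscle.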
